A study of Homo sapiens with 8 samples.

Results

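The HOX genes of the human genome were described in ribosome profiling libraries of G401 rhabdoid tumor cells. A gene was taken as a member when its symbol was HOXA, HOXB, HOXC or HOXD followed by a number only. This gave 39 genes of 20719 gene IDs in the count files, with 11 in the HOXA cluster, 10 in HOXB, 9 in HOXC and 9 in HOXD. The rule used symbols alone and no measured value, though earlier results of these data were known when it was set.

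HOX genes encode transcription factors that bind DNA through the homeodomain, a fold whose recognition helix lies in the major groove and reads the bases. They sit in clusters that arose by duplication, and genes with the same number in different clusters are paralogs. Within a cluster, low-numbered genes are used early and in anterior parts of the embryo and high-numbered genes later and more posteriorly, and the set of HOX genes that stays on in adult cells records where they came from along the body axis. Trithorax-group proteins keep HOX genes on and Polycomb proteins keep them off. SMARCB1 is a core subunit of the mSWI/SNF remodelers, which belong to the trithorax group.

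G401 is a line from a rhabdoid tumor of the kidney that lacks SMARCB1. The study used 2 engineered derivatives of it, in which doxycycline switches on either SMARCB1 or, as the control, GFP from the same type of TET-on construct. Each line received doxycycline at 0.1 µg/ml (Dox) or an equivalent amount of DMSO for 12 h, which gives the groups SMARCB1 DMSO, SMARCB1 Dox, GFP DMSO and GFP Dox, with 2 libraries in each. The study's methods describe pooled plates for each condition and experiments done in duplicate. The labels do not say whether the replicates were separate cultures, and p-values measure only the spread between these libraries, which may then be technical. Each line is a single engineered population, so a difference between the lines cannot be told apart from the history of the individual line. The libraries hold fragments bound by active ribosomes and counted on coding sequence, so a value reflects the amount of mRNA and its translation together. In such bulk samples, fewer cells with a transcript and less of it per cell cannot be told apart.

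The libraries held between 5924443 and 14000039 counts on genes, with a median of 9170558. GFP Dox replicate 1 stood apart in that 56.4% of its reads did not align uniquely, against 25.6% to 39.7% in the others. SMARCB1 itself was counted 2553 and 1750 times after its induction and 0 times in the remaining 6 libraries, as the labels state. The filament genes VIM, KRT8 and KRT18 were high in every library, between 746 and 3382 CPM (counts per 1000000 counts of the library after TMM scaling). PTPRC of blood cells was at 0 in all libraries and PECAM1 of endothelium reached at most 0.234 CPM. Of the fibroblast genes, DCN was at 0, while COL1A2 stood at 684 to 1387 CPM and PDGFRB at 144 to 273 CPM. Of the nephron lineage, PAX8, WT1 and SIX2 were at 0, while PAX2 had 38 to 107 counts in the libraries of the GFP line and 0 to 11 in those of the SMARCB1 line. COL1A1, a collagen gene, ranged from 39.1 to 53.7 CPM in the SMARCB1 line and from 1001 to 1480 CPM in the GFP line, so the lines differed widely outside the HOX clusters too. The part of these other differences in the HOX values was not tested.

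On GRCh38, the HOXA genes lie at chr7:27092993-27200091 on the minus strand, the HOXB genes at chr17:48528526-48728750 on the minus strand, the HOXC genes at chr12:53938831-54056030 on the plus strand and the HOXD genes at chr2:176092721-176190907 on the plus strand. Ribosome footprints are short, so a HOX gene can be counted only where its coding sequence differs from those of its paralogs. The stretch that codes for the recognition helix, 36 bases long, is shown for HOXB6 and for HOXB9 and its paralog HOXC9, because this helix contacts DNA and is much alike among paralogs. Capitals mark the positions at which the members of the paralog group, printed or not, do not all share a base. In 5′ to 3′ direction of the gene the stretches read,
HOXB6: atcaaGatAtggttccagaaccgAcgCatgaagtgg
HOXB9: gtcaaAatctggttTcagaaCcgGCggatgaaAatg
HOXC9: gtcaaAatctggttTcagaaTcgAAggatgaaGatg

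HOXB9 and HOXC9 shared 32 of the 36 bases. The stretches were taken from the GRCh38 genome sequence, at chr17:48596485-48596520 for HOXB6, chr17:48622933-48622968 for HOXB9 and chr12:54002597-54002632 for HOXC9. Although the helices are alike, few positions in these genes were identical over a whole footprint. Of all 30-base windows within a member's coding exons, at most 3.71% occurred more than once in the main chromosomes of the genome on either strand, with 3.58% for HOXB6, 1.86% for HOXB8, 1.59% for HOXB9 and 1.10% for HOXD9. The longest stretches that HOXB6 and HOXB9 shared with another HOX gene are shown because reads from them cannot be assigned to one gene,
HOXB6 and HOXB7, chr17:48596545-48596595: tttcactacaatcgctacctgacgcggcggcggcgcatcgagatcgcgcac
HOXB9 and HOXD9, chr17:48623060-48623099: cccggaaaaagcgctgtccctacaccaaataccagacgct

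These stretches span 51 and 40 bases. Coding bases that belong to 2 annotated genes are lost in a second way, because the counting leaves out reads that fall on both. HOXA9 shared 40.0% of its coding bases with another annotated gene, HOXC5 31.8%, HOXC10 16.2% and HOXA10 0.806%, so their counts are too low by an amount that these files do not give. The other 35 members shared none.

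Of the 39 genes, 35 had at least 1 count and 21 had counts in all 8 libraries. HOXB1, HOXD10, HOXD11 and HOXD12 had 0 counts in every library, which allows up to 3 counts in each. After removal of genes with low counts, 26 HOX genes were among the 11097 genes tested. Of the 13 not tested, 9 had a count, and none of these had more than 39 counts in total. Of the 26 tested, 17 reached the minimum in both lines, 5 in the SMARCB1 line alone, 3 in the GFP line alone and 1 in neither line alone. The genes that passed through 1 line alone are bound to differ between the lines to some degree.

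HOXC genes took the largest part of the HOX footprints in every library. Summed over the cluster, HOXC ranged from 105 to 162 CPM, HOXA from 25.6 to 41.4 CPM and HOXD from 0 to 6.81 CPM. HOXB summed to 101 and 114 CPM in SMARCB1 DMSO, 68.7 and 83.7 in SMARCB1 Dox, 30.2 and 37.6 in GFP DMSO and 21.2 and 38.0 in GFP Dox. All 4 libraries of the SMARCB1 line lay above all 4 of the GFP line. The same was so for the HOXC and HOXD sums, while the HOXA sums overlapped. Ratios of the group means, SMARCB1 line over GFP line, were 3.17 with DMSO and 2.57 with Dox for HOXB, 1.50 and 1.26 for HOXC, 3.93 and 9.65 for HOXD and 1.06 and 0.721 for HOXA, with no test of these sums. The HOXD ratios rest on few counts, with 7 and 29 in the GFP DMSO libraries and 0 and 8 in the GFP Dox libraries. As a share of HOX counts, HOXB took 35.0% ± 1.37 in SMARCB1 DMSO and 31.4% ± 5.24 in SMARCB1 Dox, against 19.4% ± 2.55 in GFP DMSO and 16.8% ± 5.43 in GFP Dox (SD, n = 2 each). All 39 genes together summed to 307 ± 15.1, 243 ± 6.77, 175 ± 3.99 and 174 ± 14.6 CPM in the same order of groups.

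**Figure D1:**
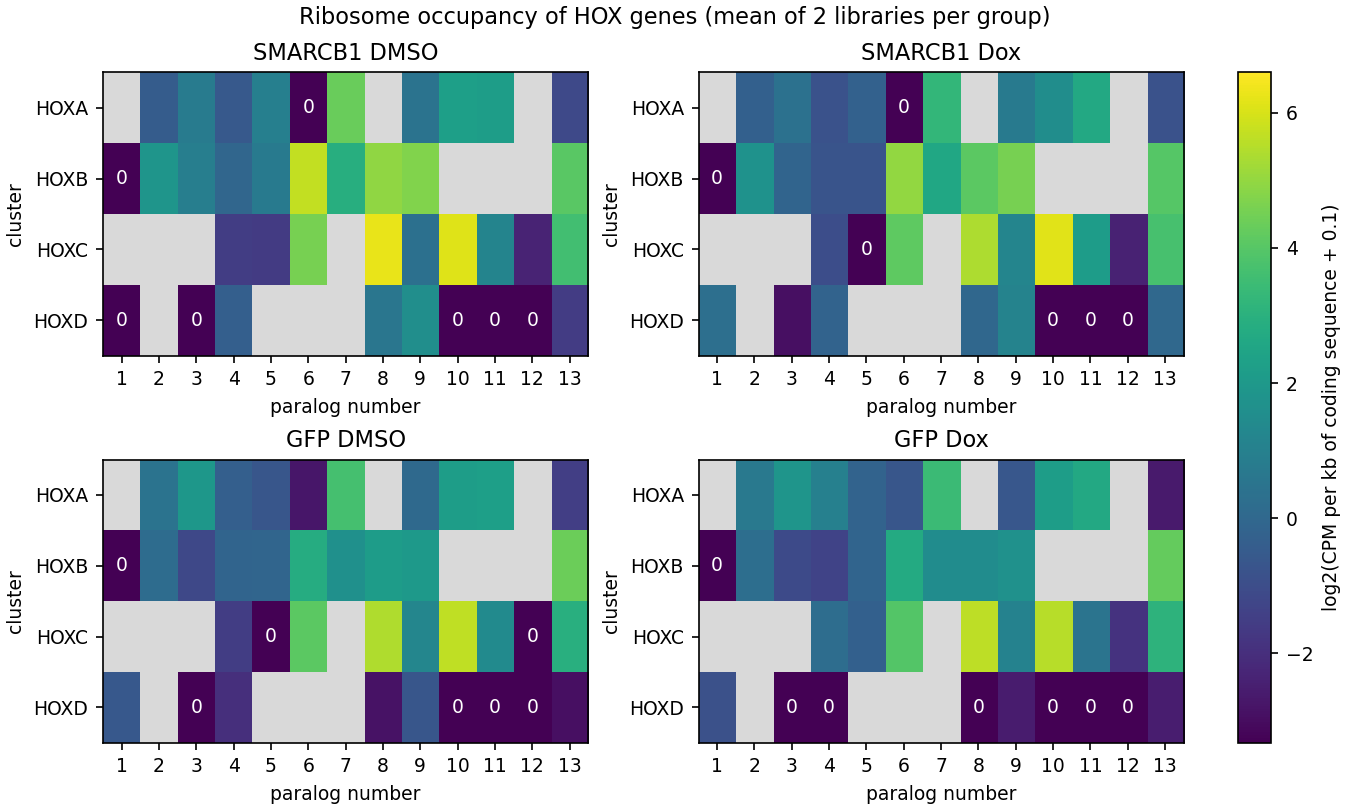
Mean level of 38 HOX genes in the 4 groups (2 libraries each), with clusters in rows and paralog numbers in columns. Colour gives log2 of CPM per kb of coding sequence plus 0.1, a white 0 marks a mean of 0 and grey marks paralogs that do not exist in human or are not shown. The brightest cells are HOXC8 and HOXC10 in all groups, and HOXB6, HOXB8 and HOXB9 are brighter in the SMARCB1 line than in the GFP line.

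Per kb of coding sequence, HOXC10 and HOXC8 were the highest HOX genes in both lines. HOXC10, a posterior gene that is used in the hindlimb region, had a median of 70.3 CPM per kb over the 4 libraries of the SMARCB1 line (lowest 56.5, highest 80.9) and 48.4 in the GFP line (43.0 to 53.1). HOXC8, a gene of the thoracic region, had 56.0 (33.8 to 92.2) and 42.6 (40.5 to 56.0). Their ranges overlapped in both lines, so their order cannot be stated. In the GFP line, HOXC8 stood clear of the gene below it, HOXB13, at 20.4 CPM per kb (13.2 to 24.9), and HOXC6 and HOXA7 followed at 16.2 and 11.8, each overlapping the gene above it. In the SMARCB1 line the genes below HOXC8 were HOXB6 at 38.7 (28.4 to 61.2), HOXB9 at 24.6 (23.0 to 27.2) and HOXB8 at 24.1 (16.7 to 30.7). HOXB6 overlapped HOXC8 and HOXB8 but not HOXB9, and HOXB9 and HOXB8 overlapped each other. In the GFP line HOXB6, HOXB8 and HOXB9 stood at places 7, 12 and 13 of 39, at medians of 7.06, 3.58 and 3.11 CPM per kb.

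The first question of the design is whether SMARCB1 re-expression changed the HOX genes within 12 h. No HOX gene was called in SMARCB1 Dox against SMARCB1 DMSO, where a gene was called at an adjusted p below 0.05 and a fold change above 2 in the quasi-likelihood test of edgeR, with p-values adjusted over all 11097 genes after Benjamini and Hochberg. Of all genes, 0.0180% were called. The lowest adjusted p among the 26 HOX genes was 0.545. An unadjusted p below 0.05 was found for 3 of the 26 (HOXA7, HOXB8 and HOXC8) and for 552 of all genes (4.97%). DESeq2 also called 0 HOX genes. The median log2 fold change of the 26 genes was -0.31, against -0.02 over all genes, and 17 values were negative and 9 positive. The share of negative values over all genes was not computed.

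HOXC8 had the lowest p of the HOX genes in this comparison. It stood at 46.3 and 67.0 CPM in SMARCB1 DMSO, 35.0 and 24.6 in SMARCB1 Dox, 32.1 and 29.8 in GFP DMSO and 40.7 and 29.4 in GFP Dox. Both SMARCB1 DMSO libraries were above the other 6, and SMARCB1 Dox overlapped the GFP line. The log2 fold change with Dox was -0.93 (SE 0.29, adjusted p = 0.545 by edgeR) in the SMARCB1 line and 0.18 (SE 0.29, adjusted p = 1) in the GFP line. The difference of the 2 effects was -1.11 (SE 0.41) and did not pass the test, with an adjusted p of 0.981 by edgeR.

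HOXA7, the highest HOXA gene and a gene of the trunk, depended on 1 library. It stood at 6.67 and 21.1 CPM in SMARCB1 DMSO, 6.02 and 6.97 in SMARCB1 Dox, 8.47 and 9.24 in GFP DMSO and 7.77 and 7.24 in GFP Dox. Only SMARCB1 DMSO replicate 2 was high, with 271 counts. The log2 fold change in the SMARCB1 line was -1.13 (SE 0.46, adjusted p = 0.915 by edgeR). Over the fits that each left out 1 library it ranged from -1.71 to -0.04, the latter without that library.

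In the GFP line, Dox against DMSO called 0 HOX genes and 0.00% of all genes. The lowest adjusted p of a HOX gene was 1 by edgeR. No HOX gene had an unadjusted p below 0.05, against 240 of all genes (2.16%). DESeq2 called 0 HOX genes here as well. The median of the 26 log2 fold changes was -0.08, against 0.02 over all genes. The test of the difference of the Dox effects between the lines called 0 HOX genes and 0.00% of all genes, with a lowest adjusted p of 0.981 for a HOX gene by edgeR. HOXC8 alone among the HOX genes had an unadjusted p below 0.05 in it, as did 443 of all genes (3.99%). DESeq2 called 0 HOX genes for this difference. The Dox comparisons in the 2 lines share no library, and the difference uses both.

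**Figure D2:**
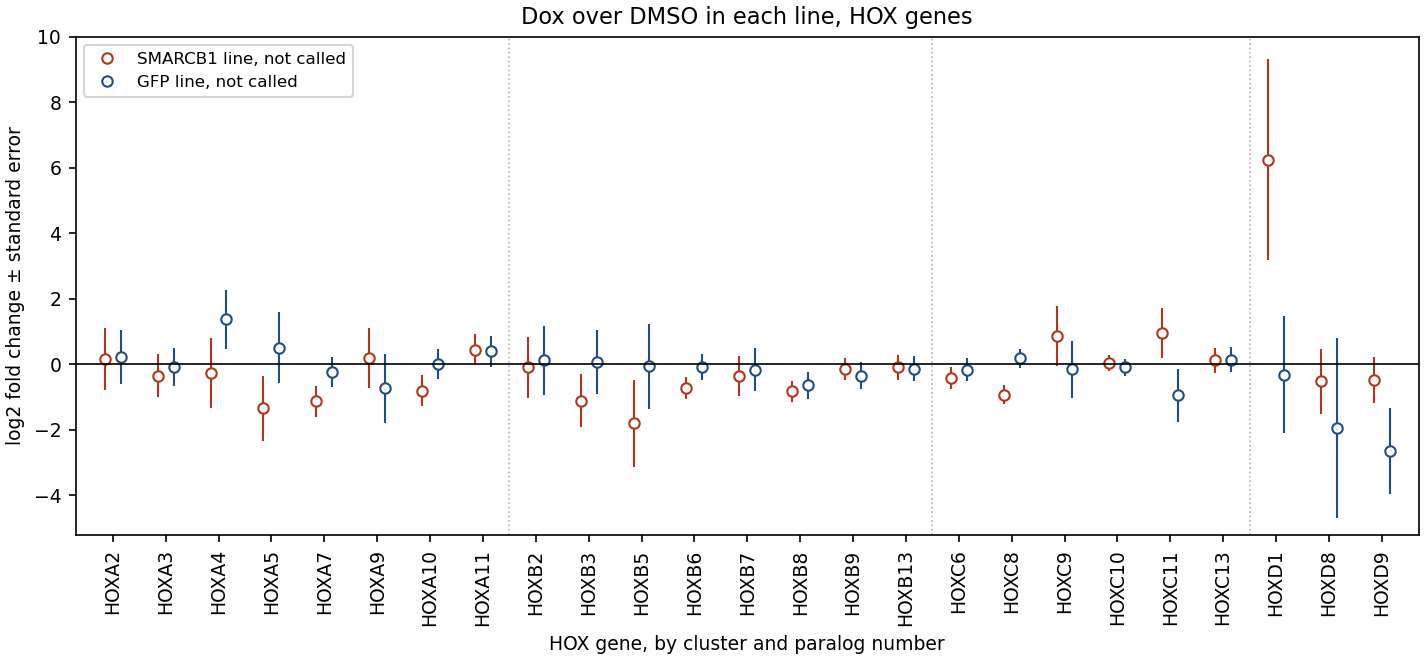
Log2 fold change of Dox over DMSO for 25 of the 26 HOX genes tested, in the SMARCB1 line (red) and in the GFP line (blue), ordered by cluster and paralog number. Bars are standard errors from edgeR with 2 libraries per group and open circles mark genes that were not called, which were all of them in both lines. HOXD1, far above the rest in the SMARCB1 line, had counts in only 3 of 8 libraries.

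Without Dox, HOXB6, HOXB8 and HOXB9 were higher in the SMARCB1 line than in the GFP line, by 7.37-fold, 7.01-fold and 6.58-fold. These are 3 of the 26 HOX genes tested, where 2.49% of all genes were called higher in the SMARCB1 line and 4.97% were called in either direction. No HOX gene was called lower. All 3 reached the count minimum in both lines. With Dox, the same genes were called and HOXD9 was added, which makes 4 of 26. Of all genes, 3.10% were called higher and 6.08% in either direction. Again no HOX gene was called lower. HOXD9 reached the count minimum in the SMARCB1 line alone, so it was bound to differ between the lines to some degree. Unadjusted p-values below 0.05 were found for 7 of the 26 HOX genes in each comparison. Over all genes, 13.9% had one with DMSO and 18.7% with Dox. The HOX genes included HOXB3, HOXD8 and HOXD9 with DMSO, and HOXD8 and HOXD9 with Dox. HOXB3, HOXD8 and HOXD9 reached the count minimum in the SMARCB1 line alone, so these numbers have no matching background. The medians over the 26 genes were 0.57 with DMSO and 0.40 with Dox on the log2 scale, against 0.02 and -0.01 over all genes. The comparison with DMSO and that with Dox share no library, but all libraries come from the same 2 engineered lines.

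HOXB6, a gene of the thoracic region that is also used in blood progenitors, had 171 and 528 counts in SMARCB1 DMSO, 228 and 148 in SMARCB1 Dox, 69 and 55 in GFP DMSO and 19 and 39 in GFP Dox. In CPM these were 28.5, 41.1, 19.1, 23.5, 5.67, 3.82, 3.14 and 5.77. Every library of the SMARCB1 line was above every library of the GFP line. Group means were 34.8 ± 8.92 against 4.75 ± 1.31 CPM with DMSO and 21.3 ± 3.10 against 4.45 ± 1.86 with Dox (SD, n = 2). The log2 fold change was 2.88 (SE 0.37, adjusted p = 0.000155 by edgeR) with DMSO and 2.24 (SE 0.39, adjusted p = 0.00196) with Dox. Its Dox effect in the SMARCB1 line was -0.72 (SE 0.34) on the log2 scale and was not called.

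HOXB8, a thoracic gene with a known role in myeloid progenitors, had 153 and 330 counts in SMARCB1 DMSO, 167 and 94 in SMARCB1 Dox, 50 and 46 in GFP DMSO and 11 and 19 in GFP Dox. In CPM these were 25.5, 25.7, 14.0, 14.9, 4.11, 3.19, 1.82 and 2.81. The lines did not overlap, and within each line both Dox libraries were below both DMSO libraries. The log2 fold change between the lines was 2.81 (SE 0.36, adjusted p = 0.000127 by edgeR) with DMSO and 2.62 (SE 0.39, adjusted p = 0.000548) with Dox. The Dox effects were -0.83 (SE 0.33, adjusted p = 0.876) in the SMARCB1 line and -0.64 (SE 0.40, adjusted p = 1) in the GFP line by edgeR, and their difference was -0.18 (SE 0.53).

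HOXB9, a gene of the lower thoracic region, had 112 and 262 counts in SMARCB1 DMSO, 206 and 115 in SMARCB1 Dox, 26 and 54 in GFP DMSO and 13 and 17 in GFP Dox. In CPM these were 18.7, 20.4, 17.2, 18.2, 2.14, 3.75, 2.15 and 2.51. The SMARCB1 line was above the GFP line in every library and spread little within itself. The log2 fold change was 2.72 (SE 0.38, adjusted p = 0.000306 by edgeR) with DMSO and 2.92 (SE 0.41, adjusted p = 0.000346) with Dox. Its Dox effect in the SMARCB1 line was -0.14 (SE 0.35).

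**Figure D3:**
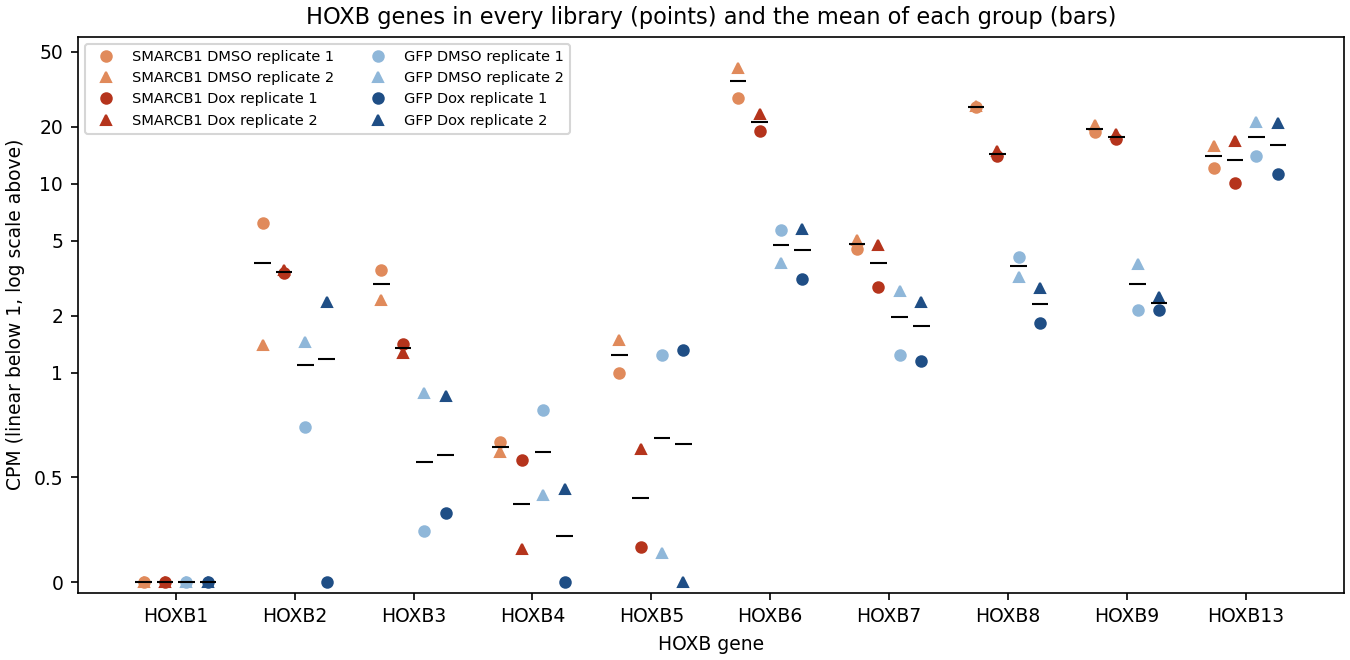
CPM of the 10 HOXB genes in each of the 8 libraries (circles replicate 1, triangles replicate 2), with bars at the mean of each group, on an axis that is linear below 1 and logarithmic above. HOXB6, HOXB8 and HOXB9 lie between 14.0 and 41.1 CPM in the SMARCB1 line and between 1.82 and 5.77 in the GFP line, while HOXB13 overlaps between the lines.

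The other HOXB genes tested did not pass. HOXB7, whose coding sequence lies between those of HOXB6 and HOXB8, stood at 4.50, 5.06, 2.84 and 4.75 CPM in the SMARCB1 line and at 1.23, 2.71, 1.16 and 2.37 in the GFP line, each in the order DMSO 1, DMSO 2, Dox 1, Dox 2. The lines did not overlap, by a small margin, and the log2 fold changes were 1.27 (SE 0.61, adjusted p = 0.386 by edgeR) with DMSO and 1.07 (SE 0.66, adjusted p = 0.416) with Dox. HOXB3, an anterior gene of the hindbrain, had 21, 31, 17 and 8 counts against 3, 13, 2 and 6. After scaling for depth its lines did not overlap, with 1.27 to 3.50 CPM against 0.247 to 0.903. Its log2 fold changes were 2.29 (SE 0.83, adjusted p = 0.173 by edgeR) and 1.11 (SE 0.93, adjusted p = 0.576). HOXB3 reached the count minimum in the SMARCB1 line alone. HOXB13, the most posterior gene of the cluster and known from prostate, stood at 12.2, 15.9, 10.0 and 16.8 CPM in the SMARCB1 line and at 14.0, 21.2, 11.2 and 20.8 in the GFP line. Its ranges overlapped, with 2 libraries of the GFP line above all of the SMARCB1 line, and its log2 fold changes were -0.32 (SE 0.38) and -0.28 (SE 0.39). With HOXB6, HOXB8 and HOXB9 taken out, the cluster summed to between 18.4 and 28.0 CPM in the SMARCB1 line and between 14.1 and 26.9 in the GFP line. These genes were taken out because they were called in the same libraries. HOXB13 was the largest single gene in what remained in every library, so this sum says little about HOXB3, HOXB7 and the other genes left in it.

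Within HOXB, the called differences thus lay in the middle of the cluster, and whether they differ from those of the genes at its ends was not tested. The nearest protein-coding genes outside the clusters were examined as well, 3 on each side of each cluster. Of these 24 genes, 21 were tested and 1 was called between the lines, SKAP1, the neighbour of HOXB on the HOXB1 side. A count of 1 in 21 is near the shares of all genes called, 4.97% with DMSO and 6.08% with Dox. SKAP1, an adaptor protein of T-cell signalling, lies at chr17:48133442-48430275, 98.3 kb from HOXB1. It had 378, 925, 360 and 220 counts in the SMARCB1 line and 45, 23, 11 and 9 in the GFP line. All libraries of the SMARCB1 line were far above those of the GFP line, with log2 fold changes of 4.68 (SE 0.38, adjusted p = 1.86e-06 by edgeR) with DMSO and 4.36 (SE 0.42, adjusted p = 1.12e-05) with Dox. Beyond SKAP1, SNX11 and CBX1 were not called, nor were TTLL6, CALCOCO2 and ATP5MC1 on the HOXB13 side. PRAC2, a small gene next to HOXB13, was not called in either comparison, and PRAC1 had too few counts to be tested.

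**Figure D4:**
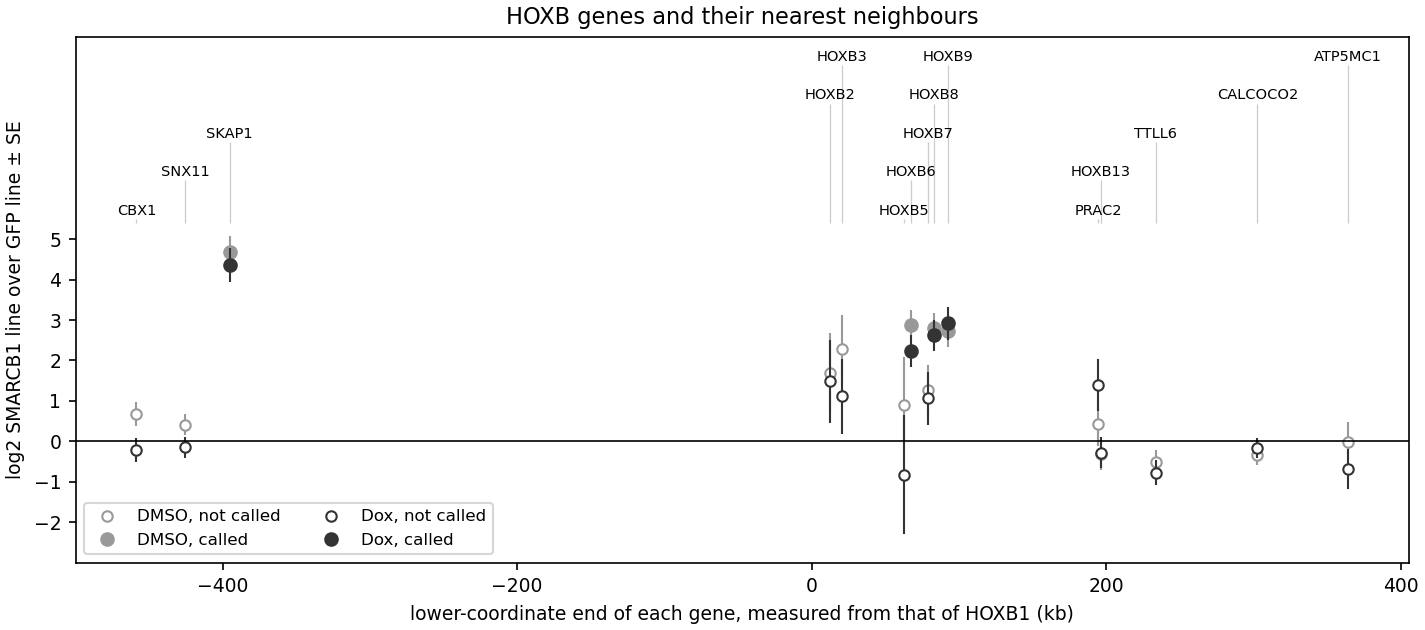
Log2 fold change of the SMARCB1 line over the GFP line with DMSO (grey) and with Dox (black) for the HOXB genes tested and their neighbours, by distance in kb of each gene's lower-coordinate end from that of HOXB1. Bars are standard errors from edgeR and filled circles mark called genes, which are SKAP1, HOXB6, HOXB8 and HOXB9.

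HOXD genes were low in both lines. HOXD9, a paralog of HOXB9 used in limb and lower trunk, had 17 and 43 counts in SMARCB1 DMSO, 30 and 12 in SMARCB1 Dox, 5 and 10 in GFP DMSO and 0 and 1 in GFP Dox. The lines did not overlap, with 1.90 to 3.35 CPM against 0 to 0.694. With Dox the gene was called, at a log2 fold change of 4.63 (SE 1.17, adjusted p = 0.0272 by edgeR), but the GFP Dox group held 1 count in all, and the ratio of 42 counts to 1, corrected for depth, was 29.5 with a 95% counting interval from 5.01 to 1191. With DMSO it was not called, at 2.45 (SE 0.78, adjusted p = 0.102 by edgeR), and the difference between these values was 2.17 (SE 1.51, adjusted p = 0.981). HOXD9 reached the count minimum in the SMARCB1 line alone. Its call with Dox was lost in the fit of the Dox groups only (adjusted p = 0.0668), without SMARCB1 Dox replicate 1 (0.177), without SMARCB1 Dox replicate 2 (0.0800) and without GFP Dox replicate 1 (0.131), all by edgeR.

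HOXD8, next to HOXD9 and a paralog of HOXB8, had 9, 12, 13 and 3 counts in the SMARCB1 line and 0, 1, 0 and 0 in the GFP line. With DMSO the ratio of 21 counts to 1 was 29.6, with a counting interval from 4.76 to 1224, and with Dox the SMARCB1 line was at least 3.74-fold higher against a floor of 3 counts over the GFP Dox group. Neither difference was called, with adjusted p of 0.0921 and 0.147 by edgeR. HOXD4 and HOXD13, which were not tested, also had all 4 libraries of the SMARCB1 line above all 4 of the GFP line in CPM. They had at most 7 and 10 counts in a library. The margins were small, with a lowest value of 0.234 CPM against a highest of 0.164 for HOXD4. For HOXD13 these were 0.156 and 0.148 CPM, so single counts decide this order. HOXD1, the most anterior gene of the cluster, had 14 counts in SMARCB1 Dox replicate 2, 16 in GFP DMSO replicate 2, 6 in GFP Dox replicate 2 and 0 elsewhere. Its counts were thus confined to the second replicates of 3 groups, and its fitted fold changes are no measure of size. HOXD3 had 1 count in all.

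Counted over the tested genes, all 4 libraries of the SMARCB1 line were above all 4 of the GFP line for 9 of 26 HOX genes (HOXB3, HOXB6, HOXB7, HOXB8, HOXB9, HOXC10, HOXC13, HOXD8 and HOXD9), where 8.61% of all genes tested showed this. The reverse held for 1 of 26, HOXA3, against 8.95% of all genes. Among the 17 genes that reached the count minimum in both lines, the numbers were 6 and 1. The share of all genes under that same condition was not computed, so these numbers have no matching background. HOXC10 stood at 83.0, 57.9, 79.7 and 64.6 CPM in the SMARCB1 line and at 54.5, 47.6, 44.2 and 51.7 in the GFP line, and its log2 fold changes of 0.46 (SE 0.25, adjusted p = 0.482 by edgeR) and 0.59 (SE 0.26, adjusted p = 0.225) did not pass. HOXC13, a posterior gene known from hair and nail, had log2 fold changes of 0.65 (SE 0.38) and 0.63 (SE 0.38). HOXA3, an anterior gene of the pharyngeal region, stood at 3.17, 1.17, 1.76 and 1.43 CPM in the SMARCB1 line and at 4.28, 5.62, 3.31 and 6.06 in the GFP line, with log2 fold changes of -1.27 (SE 0.62, adjusted p = 0.393 by edgeR) and -1.54 (SE 0.64, adjusted p = 0.202).

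**Figure D5:**
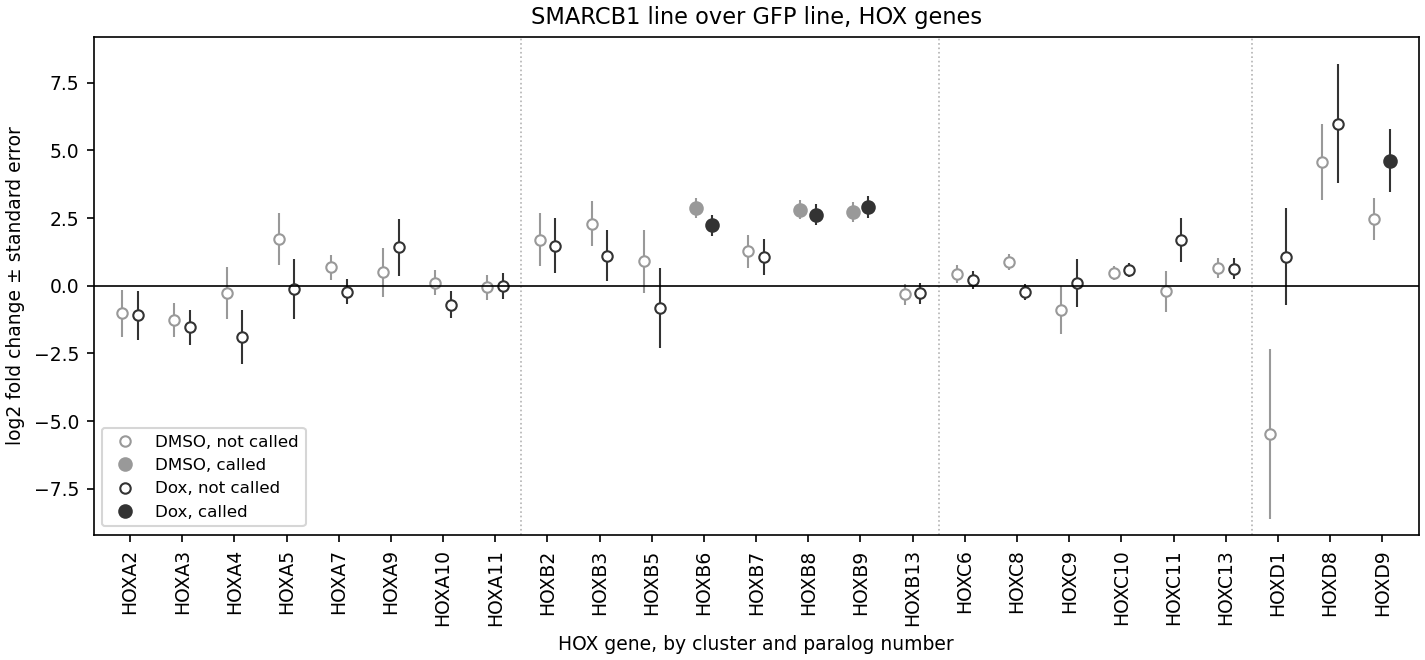
Log2 fold change of the SMARCB1 line over the GFP line for 25 of the 26 HOX genes tested, with DMSO (grey) and with Dox (black), ordered by cluster and paralog number. Bars are standard errors from edgeR with 2 libraries per group, and filled circles mark the genes called, HOXB6, HOXB8 and HOXB9 in both comparisons and HOXD9 with Dox.

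The HOXA and HOXC paralogs of the called genes were not called between the lines. In group 6, HOXC6 stood at 19.5 and 14.5 CPM in SMARCB1 DMSO, 14.9 and 10.5 in SMARCB1 Dox, 13.6 and 11.2 in GFP DMSO and 12.4 and 9.76 in GFP Dox, with overlap between the lines, and HOXA6 had 6 counts in all. In group 8, HOXC8 was not called between the lines, at 0.88 (SE 0.29, adjusted p = 0.114 by edgeR) with DMSO and -0.23 (SE 0.29, adjusted p = 0.737) with Dox. In group 9, HOXA9 and HOXC9 had 73 and 118 counts in all, and their ranges overlapped between the lines. Whether the paralogs differ from HOXB6, HOXB8 and HOXB9 in their response was not tested.

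Paralog group 11 patterns the metanephric kidney, where its members act together on the outgrowth of the ureteric bud. HOXA11 stood at 3.83 and 5.22 CPM in SMARCB1 DMSO, 7.03 and 5.39 in SMARCB1 Dox, 6.08 and 3.47 in GFP DMSO and 5.13 and 7.39 in GFP Dox. HOXC11 stood at 1.00 and 3.82, 4.93 and 4.91, 1.97 and 3.89 and 0.331 and 2.66 CPM in the same order. Neither was called in any comparison, and HOXD11 was at 0 throughout. Of 10 genes of the kidney network around them, 4 had a count and 2 were tested. PAX2, which HOX11 proteins act with in the early kidney, was lower in the SMARCB1 line, with 0, 11, 3 and 1 counts against 48, 107, 38 and 60, and log2 fold changes of -3.40 (SE 0.79, adjusted p = 0.0178 by edgeR) and -5.05 (SE 0.91, adjusted p = 0.00280).

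Summed over all clusters, the anterior genes (paralog numbers 1 to 3) took 13.4 ± 7.65, 13.4 ± 3.29, 13.4 ± 3.67 and 16.2 ± 4.23 CPM in SMARCB1 DMSO, SMARCB1 Dox, GFP DMSO and GFP Dox. The central genes (4 to 8) took 159 ± 30.5, 92.0 ± 4.79, 65.3 ± 3.90 and 67.2 ± 7.86 CPM, and the posterior genes (9 to 13) 135 ± 7.78, 138 ± 5.27, 95.8 ± 4.23 and 90.4 ± 18.2 (SD, n = 2 each). The anterior sums overlapped in all groups, and the central and posterior sums of the SMARCB1 line were above those of the GFP line in every library. The central sums include the called genes HOXB6 and HOXB8, and the posterior sums include HOXB9 and HOXD9. The sums were not tested, nor was whether the other genes of each class differ between the lines as a set.

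The proteins that act with or on HOX genes were described from fixed lists. Of 9 cofactors of the TALE class, which bind DNA beside HOX proteins, 6 were tested and 0 were called in any of the 5 comparisons, and MEIS1 and PKNOX2 were listed at 0. MEIS2 was between 69.8 and 101 CPM in all libraries. Of 10 trithorax and related activators, 10 were tested, and of 14 Polycomb genes, 13 were tested, with 0 called in any comparison. KMT2A, the histone methyltransferase that keeps HOX genes on, had a log2 fold change between the lines of 0.72 (SE 0.24, adjusted p = 0.123 by edgeR) with DMSO and 0.15 (SE 0.24, adjusted p = 0.798) with Dox. EZH2, the Polycomb methyltransferase, had -0.35 (SE 0.24, adjusted p = 0.627) and -0.53 (SE 0.24, adjusted p = 0.261) by edgeR. Of 10 upstream signals and organizers of the clusters, 4 were tested and 0 were called, and the CDX genes were at 0. Of 10 homeobox genes related to HOX, 2 were tested, and MEOX1, a gene of the somites, was lower in the SMARCB1 line with Dox, at -1.34 (SE 0.30, adjusted p = 0.0134 by edgeR), and not called with DMSO, at -0.39 (SE 0.29, adjusted p = 0.672).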

How the data were processed

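Ribosome profiling was measured in 8 libraries of G401 cells. The authors isolated active ribosomes with the RiboLace kit, aligned reads with STAR to hg38 and deposited raw counts per gene from HTSeq (intersection-strict, coding sequences of GENCODE 42). The handling of adapters and duplicates and the strand option are not given in the sources used here. Without molecular identifiers, intervals cover counting error only.

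The 5 HTSeq total lines of each file were left out of tests. Of uniquely aligned reads, 52.8% to 61.8% were counted on a coding sequence. Symbols, positions and coding lengths came from GENCODE 44 by gene ID, and 311 IDs without a symbol kept their ID. Counts were filtered with filterByExpr (minimum count 10), scaled by TMM and tested with the edgeR 4.0.16 quasi-likelihood test in R 4.3.3, with 1 term per group over all 8 libraries and Benjamini-Hochberg adjustment over 11097 genes. Standard errors were derived from the fold change and its F statistic. The study's threshold was kept (adjusted p below 0.05, fold above 2). DESeq2 1.42.0, which the study used, was an alternative, beside other scalings, filters, a replicate block and leaving out each library. The fits were tested on simulated data. Named with values were members called in any comparison, the 3 highest per kb in each cluster and paralog group 11. HOXB3, HOXB7, HOXC13 and HOXA3 and single genes of the lists were added after their values were seen. The members and lists were chosen with earlier results of these data known. Some genes and sequences that these rules would name are not reported here, though they count in the totals.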

Additional observations from a re-analysis of the deposited data

How the results depend on the processing

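HOXB6, HOXB8 and HOXB9 were called between the lines, with DMSO and with Dox, in all alternatives run. These were DESeq2, 2 other scalings, no filter and a filter of 10 counts in every library, no fold minimum, a robust fit, a fit of the groups compared only, the replicate block and each library left out. Fitting the DMSO groups alone called 5 HOX genes in place of 3, adding HOXD8 and HOXD9. Without 1 library, the number called was 3 in each fit with DMSO and 3 to 6 with Dox, where leaving out GFP Dox replicate 2 gave 6 and added HOXB2 and HOXC11. The fit without GFP Dox replicate 2 kept only GFP Dox replicate 1 in that group, where HOXB2 had 0 counts and HOXC11 had 2. In that library 56.4% of the reads did not align uniquely. No alternative called a HOX gene for a Dox effect or for the difference of the Dox effects.

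Among the HOX fold changes recomputed under the alternatives, sign changes occurred only when a library was left out, and none of these values was called. For genes outside the HOX clusters, the alternatives are given here only as the number of genes called, not as fold changes of single genes. The log2 ranges over such fits were -0.59 to 0.29 for HOXB6, -0.68 to 0.12 for HOXB9 and -0.073 to 0.39 for HOXC8 with Dox in the GFP line, -0.46 to 0.17 for HOXB8 and -0.25 to 0.54 for HOXB9 in the difference of the Dox effects, -0.59 to 0.012 with DMSO and -0.68 to 0.24 with Dox for HOXB13 between the lines, and -0.51 to 0.026 for HOXC8 between the lines with Dox. The cause was not tested.

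Counts over all genes moved more. With Dox in the SMARCB1 line, 2 genes were called, and 34 with DESeq2, 46 without a filter, 1 with 10 counts in every library, 5 in the groups compared only and 1 to 2 without 1 library. In the GFP line the count was 0, and 14 without a filter and 147 without GFP Dox replicate 2. For the difference it was 0, and 1 with DESeq2, 15 without a filter and 105 without GFP Dox replicate 2. Between the lines, 552 with DMSO and 675 with Dox became 288 and 377 with 10 counts in every library, and 299 to 438 and 348 to 1372 without 1 library. The fits without GFP Dox replicate 2 rest on GFP Dox replicate 1 alone in that group. Scaling by library size alone moved the median of all genes to 0.11 between the lines with Dox and to 0.16 in the difference (log2).

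Same-numbered libraries deviated together with correlations from 0.0454 to 0.280 over 6 pairs of groups, and 1 was under 0.1, so the numbers were not taken to pair libraries. With the replicate number as a block, the HOX counts were 3 between the lines with DMSO, 4 with Dox and 0 in each comparison of Dox effects, and the count over all genes with Dox in the SMARCB1 line was 13.

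With 2 libraries in each group, HOX genes with few counts have wide errors. HOXD9 was not tested with 10 counts in every library.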
